A study of Mus musculus with 20 samples.

Results

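Motile cilia genes were followed across 20 libraries of mouse ovary. They were taken by name: a gene entered if its symbol began with Dnah, Dnai, Cfap, Rsph, Tekt, Drc or Spag followed by a digit and if its expected counts summed to at least 200 over the 20 libraries. Of the 20960 genes deposited, 75 matched the name, and 69 of those reached the sum. The 69 members were 32 Cfap, 15 Dnah, 9 Spag, 6 Rsph, 4 Tekt and 3 Drc genes. No Dnai symbol entered, because the table lists the axonemal dynein intermediate chains under the older symbols Dnaic1 and Dnaic2. Just inside the threshold stood Spag4 with a summed count of 313 and Dnah14 with 334. Just outside stood Spag6 with 113 and Tekt5 with 72. The other 4 matching genes were Rsph6a with a summed count of 1, and Cfap97d1, Spag11a and Spag11b with 0.

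Motile cilia beat because dynein motors on a ring of microtubule doublets slide the doublets past each other. Outer arm dyneins power the stroke and inner arm dyneins shape it, while radial spokes, the central apparatus and the nexin-dynein regulatory complex pass the signals that make the beat regular. In the oviduct, multiciliated cells move the oocyte and fluid towards the uterus, next to secretory cells that make oviductin, and the factor FOXJ1 with RFX factors switches on the genes of motile cilia. The ovary itself has few motile ciliated cells, and the oviduct lies against the ovarian bursa.

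The groups were named Control, Model, LNPIFN-Y and ptLNPIFN-Y, with 5 libraries each, all labelled as tissue ovary. They were taken here as a single batch. The Control label gives no treatment, the Model label gives ovarian cancer, and the other 2 labels add LNPIFN-Y or ptLNPIFN-Y to ovarian cancer. The series text describes C57BL/6 mice in which ID8Luci cells, a luciferase line of the mouse ovarian cancer line ID8, were placed in the ovarian bursa after the bursa had been expanded with peptide-targeted lipid nanoparticles carrying FSH subunit mRNA, and it describes treatment of tumour-bearing mice with peptide-targeted particles (ptLNP) carrying IFN-γ mRNA. It does not describe the particle without the pt prefix, and no group with empty particles is among the labels. Age and sex were not given, and whether oviduct was taken along with the ovary was not stated. The labels do not say that libraries came from separate animals. The p-values thus measure only the spread between these libraries, which may not be the spread between animals.

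Total counts per library ranged from 16496793 to 17218043, so the depth was nearly even. All 17 listed genes of the IFN-γ response passed the test as higher in both particle groups against Model and against Control. Zp3, a zona pellucida gene of oocytes, had no count in LNPIFN-Y 5 and ptLNPIFN-Y 5, and the counts, medians and calls against Control and Model are also given below without both. Levels below are CPM, counts relative to library sizes scaled by the trimmed mean of M-values, and fold changes are log2 values from edgeR with their standard errors (SE). A gene was called past the test at an adjusted p under 0.05, adjusted over 15723 tested genes, and all 69 members were among these.

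The motile cilia genes varied widely between libraries of a group, and most particle libraries held less of them than any Control library. Foxj1, the master regulator of motile ciliogenesis and itself no member, stood in Control at 121, 225, 149, 74.1 and 17.7 CPM. In Model it stood at 0.455, 52.1, 8.86, 68.1 and 213 CPM. Its LNPIFN-Y values were 1.62, 3.84, 85.4, 0.426 and 1.72 CPM, and in ptLNPIFN-Y at 0.0615, 6.46, 79.9, 0.316 and 0.402 CPM. All 5 Control libraries and 3 of 5 Model libraries were above 10 CPM, as were LNPIFN-Y 3 and ptLNPIFN-Y 3 and no other particle library. Replicate 3 of each particle group thus lay among the Control values, and every pair of groups overlapped. Sntn, Dynlrb2 and Ccdc39, other markers of motile ciliated cells, ran the same way. Sntn stood between 4.02 and 56.4 CPM in Control and at 0 in LNPIFN-Y 5, ptLNPIFN-Y 1, ptLNPIFN-Y 4 and ptLNPIFN-Y 5. Dynlrb2 lay between 4.53 and 54.2 CPM in Control and between 0.0615 and 16.1 CPM in ptLNPIFN-Y. Ccdc39 was at 9.585 CPM or more in Control and between 0.5691 and 29.66 CPM in ptLNPIFN-Y. The marker Tppp3 followed only in part, with no library under 16.88 CPM. Model 3 and LNPIFN-Y 1, with Foxj1 under 10 CPM, held 62.28 and 57.32 CPM of Tppp3, above the 39.89 CPM of Control 5. A count of 0 allows up to 3 counts, which is 0.161 to 0.201 CPM in these libraries, for counting error only.

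The summed level of the 69 members followed the same libraries. It was 2102, 3828, 2438, 1562 and 889 CPM in Control and 715, 1239, 1088, 1448 and 3525 CPM in Model. It was 882, 745, 1811, 681 and 808 CPM in LNPIFN-Y and 666, 822, 1562, 880 and 653 CPM in ptLNPIFN-Y. Control averaged 2164 ± 1099 CPM, Model 1603 ± 1107 CPM, LNPIFN-Y 986 ± 467 CPM and ptLNPIFN-Y 917 ± 374 CPM (SD, n = 5 each). Part of the lowest sums came from members that varied little: 9 of the 69 are used by many cell types, and their summed level stayed between 419 and 608 CPM in all 20 libraries. In these bulk samples, fewer ciliated cells and less cilia RNA per cell cannot be told apart.

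**Figure D1:**
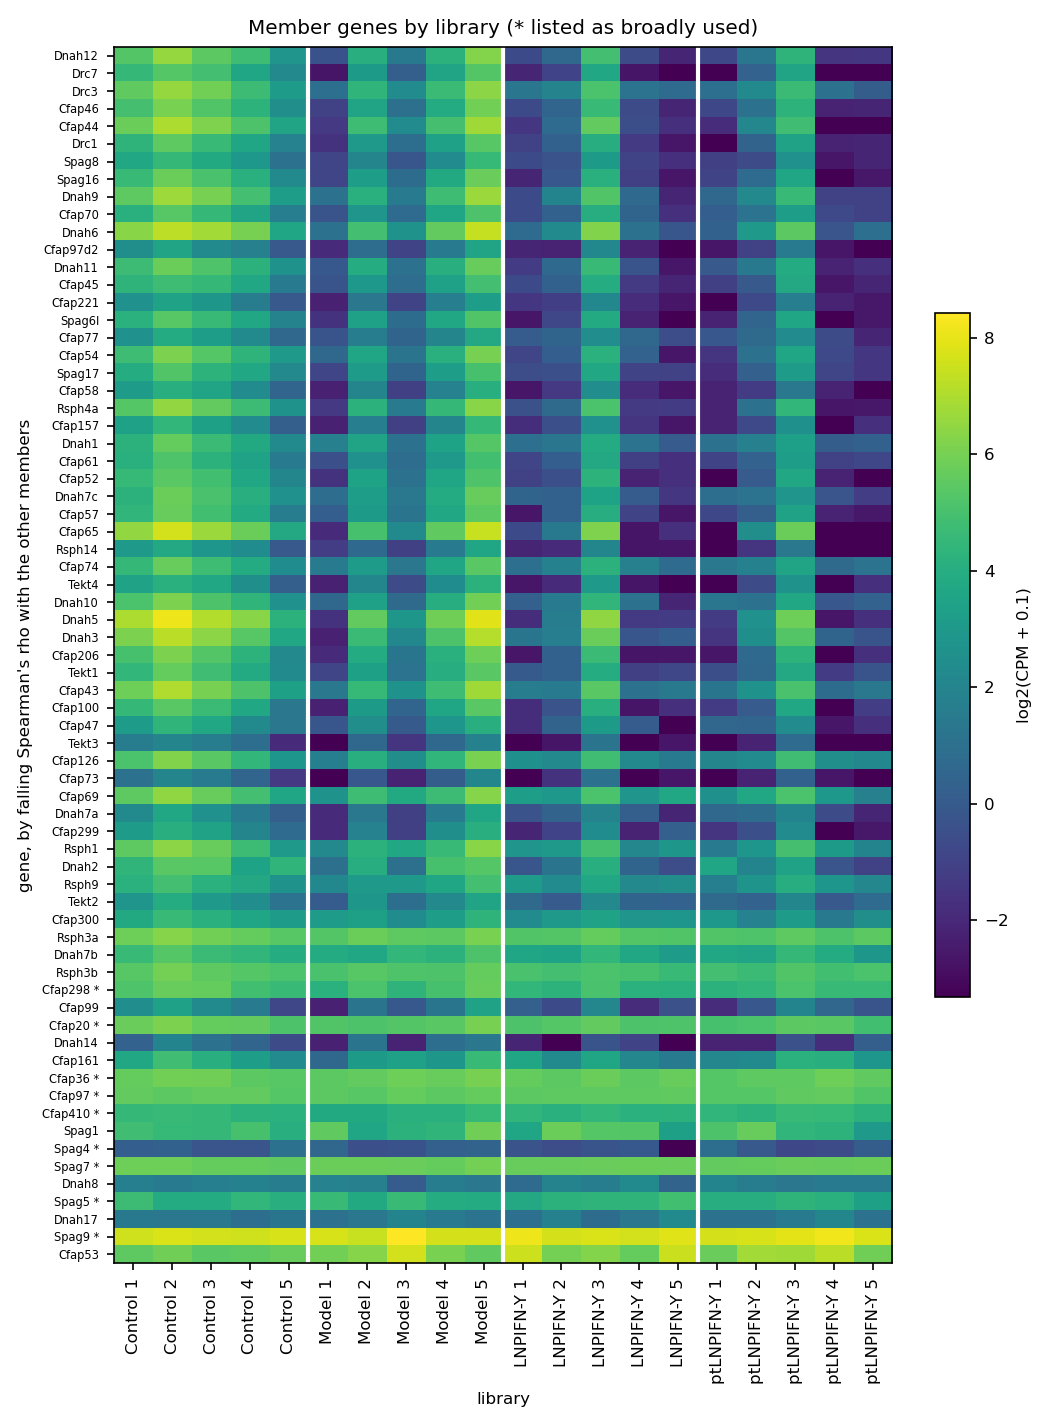
Heat map of log2(CPM + 0.1) for the 69 members (rows, from the highest to the lowest Spearman's rho with the mean of the other members) in 20 libraries (columns, by group, separated by white lines). The upper rows change together from library to library, bright in Control 2, Model 5, LNPIFN-Y 3 and ptLNPIFN-Y 3 and dark in the remaining particle libraries, while the lower rows, with Spag9 and Cfap53 at the bottom, do not.

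Most members went up and down across the libraries as a block. For each gene, Spearman's rho was computed between its log2 CPM and the mean log2 CPM of the other members over the 20 libraries, as a description, since the libraries share tissue content and scaling. The median rho was 0.941, and 50 of 69 members reached 0.85. All 50 were among the 60 members outside the broadly used list, and none of the 9 broadly used genes reached it. The highest values belonged to Dnah12 (0.992), an inner arm dynein, Drc7 (0.989), a subunit of the nexin-dynein regulatory complex, and Cfap46 (0.988), a protein of the central apparatus. The lowest belonged to Cfap53 (-0.466), Spag9 (-0.415) and Dnah17 (-0.122). Because Foxj1 spanned several orders of magnitude with no gap at 10 CPM, rho was also taken within the 10 libraries with Foxj1 at 10 CPM or more, where the median of the 60 was 0.964. Within the 10 libraries under 10 CPM it was 0.674.

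Because the members moved together, their promoters were read for 2 kinds of motif: the X-box bound by RFX factors, in full (GTTNCC, then NN, then GGNAAC) and as its single arm GTTGCC, and a forkhead motif (TGTTTAC). Both strands were searched in windows from 250 bases before to 50 after each RefSeq gene start (GRCm38.p6), and a full X-box can itself hold the single arm. Of the 69 members, 58 had a promoter in the table. The single arm was found in 22 of 58 members (37.9%), against 14.1% of 27025 genes with a window of that length. The full X-box was found in 1 member, Cfap298 (1.72%), against 0.529% of all genes, and the forkhead motif in 4 members (6.90%) against 4.05%. Cfap298 is on the broadly used list, and 0 of 50 members outside that list held the full X-box. Only these exact letters were searched, with NN between the arms of the full X-box. Arms with another spacing or with a change in the fixed letters were not counted as a full X-box. These letters are a description and not a measured binding site.

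Promoters of 5 members are printed 5′ to 3′ on the strand of the gene, with the motifs in capitals. All 5 were picked from members with a motif. Dnah12 and Drc7, which had the highest rho values, and Rsph3a, which passed the test, were not among the members with a motif. Cfap298 (chr16:90934800-90935099, minus strand), needed to assemble dynein arms, is shown for its full X-box; Cfap44 (chr16:44394549-44394848, plus strand) and Cfap46 (chr7:139683766-139684065, minus strand) are shown as members with a rho of 0.986 and 0.988; and Cfap300 (chr9:8042826-8043125, minus strand) and Tekt2 (chr4:126325597-126325896, minus strand) as members past the test in ptLNPIFN-Y against Control.
Cfap298: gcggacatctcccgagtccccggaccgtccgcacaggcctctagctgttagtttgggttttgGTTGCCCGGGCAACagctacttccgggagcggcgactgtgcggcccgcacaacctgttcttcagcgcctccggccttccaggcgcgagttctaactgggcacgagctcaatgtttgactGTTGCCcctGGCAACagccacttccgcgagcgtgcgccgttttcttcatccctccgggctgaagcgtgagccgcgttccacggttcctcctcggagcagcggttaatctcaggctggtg
Cfap44: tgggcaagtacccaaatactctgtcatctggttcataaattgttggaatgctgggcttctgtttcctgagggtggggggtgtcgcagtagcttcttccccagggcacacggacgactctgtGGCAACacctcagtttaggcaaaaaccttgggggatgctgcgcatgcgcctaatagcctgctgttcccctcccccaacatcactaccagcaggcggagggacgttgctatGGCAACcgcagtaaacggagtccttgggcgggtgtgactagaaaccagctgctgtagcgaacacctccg
Cfap46: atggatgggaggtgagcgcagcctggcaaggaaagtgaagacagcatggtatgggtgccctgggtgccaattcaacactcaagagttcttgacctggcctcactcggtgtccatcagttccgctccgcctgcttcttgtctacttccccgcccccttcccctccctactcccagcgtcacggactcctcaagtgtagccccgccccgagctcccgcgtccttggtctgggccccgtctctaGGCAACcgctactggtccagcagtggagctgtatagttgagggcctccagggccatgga
Cfap300: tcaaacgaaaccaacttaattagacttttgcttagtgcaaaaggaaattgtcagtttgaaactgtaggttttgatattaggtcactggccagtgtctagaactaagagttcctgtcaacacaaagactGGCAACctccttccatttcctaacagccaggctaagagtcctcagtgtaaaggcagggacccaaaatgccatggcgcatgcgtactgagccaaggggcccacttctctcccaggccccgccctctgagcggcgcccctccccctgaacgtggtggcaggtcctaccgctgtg
Tekt2: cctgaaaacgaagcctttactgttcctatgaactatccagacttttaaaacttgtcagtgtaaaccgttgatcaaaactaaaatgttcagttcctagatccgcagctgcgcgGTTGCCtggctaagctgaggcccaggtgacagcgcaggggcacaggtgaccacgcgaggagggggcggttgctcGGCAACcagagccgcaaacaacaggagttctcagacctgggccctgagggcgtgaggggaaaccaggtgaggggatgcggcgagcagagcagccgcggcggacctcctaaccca
Cfap298 holds GTTGCCCGGGCAAC, which reads as an X-box on either strand, and a further pair of single arms nearer its start. By the exact letters searched, Cfap44 and Tekt2 hold 2 single arms each, and Cfap46 and Cfap300 hold 1 each.

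Among the outer arm dynein heavy chains, the motors that give the stroke its power, Dnah5 ranged widely. It stood in Control at 126, 285, 136, 80.2 and 18.9 CPM and in Model at 0.228, 47.9, 7.28, 58.8 and 243 CPM. The LNPIFN-Y libraries held 0.195, 3.09, 89.2, 0.304 and 0.331 CPM, and in ptLNPIFN-Y at 0.307, 6.08, 57.8, 0.0632 and 0.201 CPM. Its lowest library held 0.0222% of its highest, and all pairs of groups overlapped, with LNPIFN-Y 3 and ptLNPIFN-Y 3 among the Control values. Dnah9 (rho 0.982), its partner in the distal part of respiratory cilia, and Dnah11 (rho 0.979) followed it. Control medians were 45.7 CPM for Dnah9 and 26.4 CPM for Dnah11, Model medians 17.4 and 15.5 CPM, LNPIFN-Y medians 1.52 and 0.730 CPM, and ptLNPIFN-Y medians 1.48 and 0.861 CPM.

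Dnah8 and Dnah17, the outer arm heavy chains of sperm flagella, did not move with Dnah5. Dnah17 stood at 2.56, 2.43, 2.47, 1.83 and 2.24 CPM in Control, at 1.99, 2.44, 3.89, 2.90 and 2.15 CPM in Model, at 1.88, 3.44, 1.71, 2.43 and 4.83 CPM in LNPIFN-Y and at 2.09, 2.01, 2.77, 4.11 and 2.08 CPM in ptLNPIFN-Y. The highest value belonged to LNPIFN-Y 5 and the lowest to LNPIFN-Y 3, the library of that group in which Dnah5 was high. Dnah8 lay between 0.971 and 4.62 CPM in all libraries, with a rho of -0.035. Per kilobase of transcript, the Control mean was 8.17 CPM for Dnah5, 3.67 for Dnah9 and 1.93 for Dnah11, against 0.204 for Dnah8 and 0.151 for Dnah17.

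The 10 inner arm heavy chains, which shape the bend of the cilium, had rho values from 0.731 (Dnah14) to 0.992 (Dnah12). The most abundant per library were Dnah6, with Control values from 12.2 to 156 CPM and LNPIFN-Y values from 0.794 to 74.6 CPM, and Dnah3, with Control values from 13.1 to 151 CPM and ptLNPIFN-Y values from 0.246 to 39.4 CPM. Dnah3 shares 1506 exon bases with Lyrm1 on the opposite strand (GENCODE vM21), and the strandedness of the counting was not given in the sources used here. Dnah14 was near the threshold of the rule, with no count in LNPIFN-Y 2 and LNPIFN-Y 5 and 3.89 CPM in its highest library.

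Dnah7c (gene ID 100101919; chr1:46425428-46807477, plus strand) was the inner arm chain past the test. It stood in Control at 18.7, 56.1, 33.4, 16.3 and 5.97 CPM and in Model at 1.76, 9.47, 2.49, 15.0 and 52.5 CPM. Across the LNPIFN-Y libraries its level was 1.30, 1.16, 11.2, 0.973 and 0.265 CPM, and in ptLNPIFN-Y at 1.78, 2.13, 6.93, 0.759 and 0.335 CPM. Of the particle libraries, only replicate 3 of each group reached above the lowest Control library. Against Control it fell in ptLNPIFN-Y by 3.44 on the log2 scale (SE 1.10, edgeR adjusted p = 0.0392), while in LNPIFN-Y the fold change was -3.12 (SE 1.08, edgeR adjusted p = 0.0605). Dnah7a, Dnah7b and Dnah7c are near-identical copies on chromosome 1, so their reads may have been split between them. Dnah7b never dropped under 7.44 CPM, whereas Dnah7a reached 0.132 CPM and Dnah7c 0.265 CPM.

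**Figure D2:**
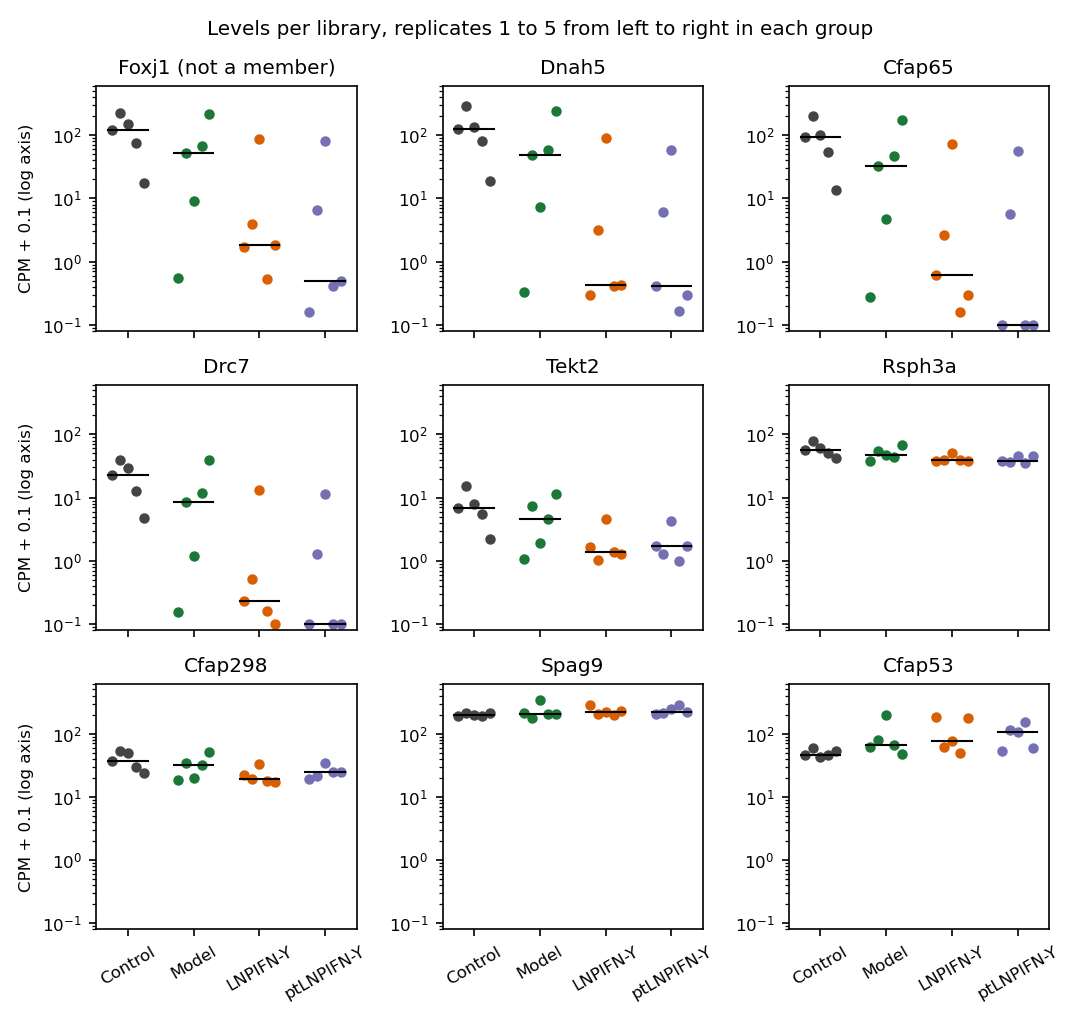
CPM + 0.1 (log axis) of Foxj1 and 8 members in each library, with replicates 1 to 5 from left to right in each group and a bar at the group median. Foxj1, Dnah5, Cfap65 and Drc7 spread over several orders of magnitude within Model, LNPIFN-Y and ptLNPIFN-Y, Tekt2 spread less, and Rsph3a, Cfap298, Spag9 and Cfap53 kept a high floor.

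Of the radial spoke genes, which link the doublets to the central pair, Rsph3a and Rsph3b changed little between libraries but did pass the test. Rsph3a (gene ID 66832; chr17:7945614-7979556, plus strand) stood in Control at 57.1, 78.3, 61.6, 50.9 and 42.1 CPM and in Model at 38.6, 54.9, 46.4, 43.9 and 67.2 CPM. In LNPIFN-Y it stood at 38.0, 39.3, 50.3, 39.1 and 38.0 CPM, and in ptLNPIFN-Y at 38.0, 37.1, 46.0, 35.7 and 44.8 CPM. Most particle libraries lay under the lowest Control value, but LNPIFN-Y 3, ptLNPIFN-Y 3 and ptLNPIFN-Y 5 did not. Against Control it fell by 0.50 on the log2 scale in LNPIFN-Y (SE 0.16, edgeR adjusted p = 0.0447) and by 0.52 in ptLNPIFN-Y (SE 0.16, edgeR adjusted p = 0.0326).

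Its near-identical copy Rsph3b (gene ID 100037282; chr17:6904716-6948356, minus strand) stood in Control at 42.1, 63.2, 45.6, 40.6 and 33.9 CPM and in Model at 33.6, 41.1, 36.6, 35.3 and 49.7 CPM. Its LNPIFN-Y values were 32.8, 29.9, 34.3, 32.2 and 24.9 CPM, and in ptLNPIFN-Y at 30.4, 26.0, 38.0, 29.5 and 34.5 CPM. In LNPIFN-Y only replicate 3 lay above the lowest Control value. Rsph3b fell against Control by 0.55 in LNPIFN-Y (SE 0.15, edgeR adjusted p = 0.0239) and by 0.51 in ptLNPIFN-Y (SE 0.15, edgeR adjusted p = 0.0307). How reads were divided between Rsph3a and Rsph3b is uncertain. Their lowest libraries held 45.6% and 39.3% of the highest. Rsph4a, a protein of the spoke head, behaved otherwise, with Control values from 6.26 to 92.0 CPM and a lowest library, ptLNPIFN-Y 4, at 0.0632 CPM. Rsph1, another head protein, had 38.7 CPM per kilobase in Control.

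The 11 genes of the central apparatus had rho values from 0.910 (Cfap69) to 0.988 (Cfap46). Cfap65 stood in Control at 92.8, 201, 102, 55.0 and 13.4 CPM and in Model at 0.171, 32.4, 4.61, 46.6 and 174 CPM. The LNPIFN-Y libraries held 0.519, 2.56, 72.0, 0.0608 and 0.198 CPM, and in ptLNPIFN-Y at 0, 5.58, 56.1, 0 and 0 CPM. Thus 3 ptLNPIFN-Y libraries had no count of a gene that reached 56.1 CPM in replicate 3 of that group. Cfap69 kept a higher floor, with no library under 3.35 CPM. Spag6l, Spag16 and Spag17, the mammalian relatives of central pair proteins of Chlamydomonas, had rho values of 0.975, 0.982 and 0.973.

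The 9 genes of the nexin-dynein regulatory complex and of the rulers and tethers that space the dynein arms had rho values from 0.925 to 0.989. Drc7 stood in Control at 22.7, 39.8, 29.7, 12.5 and 4.59 CPM and in Model at 0.0569, 8.43, 1.09, 11.6 and 39.2 CPM. Across the LNPIFN-Y libraries its level was 0.130, 0.408, 13.2, 0.0608 and 0 CPM, and in ptLNPIFN-Y at 0, 1.19, 11.4, 0 and 0 CPM. Its order of libraries was that of Foxj1 with few exchanges (rho 0.962 with Foxj1). Cfap43 and Cfap44, which tether inner arms to the doublets, reached 129 and 127 CPM in Control 2. In LNPIFN-Y 3 they stood at 43.5 and 49.5 CPM, while the other 4 LNPIFN-Y libraries lay between 2.07 and 3.05 CPM and between 0.198 and 1.63 CPM. Cfap43 shares 164 exon bases with Itprip on the same strand.

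Tektins and microtubule inner proteins stabilise the doublets from within. Tekt2 (gene ID 24084; chr4:126322121-126325688, minus strand) stood in Control at 6.87, 15.2, 7.86, 5.32 and 2.12 CPM and in Model at 0.967, 7.38, 1.82, 4.56 and 11.4 CPM. In LNPIFN-Y it stood at 1.56, 0.931, 4.497, 1.28 and 1.19 CPM, and in ptLNPIFN-Y at 1.60, 1.19, 4.10, 0.885 and 1.61 CPM. Apart from replicate 3, every particle library lay under the lowest Control value. Tekt2 fell against Control in ptLNPIFN-Y by 1.99 on the log2 scale (SE 0.66, edgeR adjusted p = 0.0461), and its fold change in LNPIFN-Y was -1.98 (SE 0.66, edgeR adjusted p = 0.0539). Tekt1 and Tekt3 had rho values of 0.940 and 0.928. Cfap20, a protein of the seam between the doublet tubules that other cells use too, lay between 29.1 and 70.0 CPM in all libraries.

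Cfap53, an inner protein also needed for left-right patterning, went against the other members. It stood in Control at 45.3, 58.8, 43.1, 45.1 and 52.2 CPM and in Model at 61.5, 79.6, 200.1, 67.2 and 47.8 CPM. Its LNPIFN-Y values were 183, 62.3, 76.2, 49.6 and 180 CPM, and in ptLNPIFN-Y at 53.7, 112, 107, 151 and 58.4 CPM. The highest values were in Model 3, LNPIFN-Y 1, LNPIFN-Y 5 and ptLNPIFN-Y 4, where Foxj1 was under 10 CPM, and the groups overlapped. Its fold change against Control was 1.17 in LNPIFN-Y (SE 0.42, edgeR adjusted p = 0.0696), 0.98 in ptLNPIFN-Y (SE 0.42, edgeR adjusted p = 0.108) and 0.90 in Model (SE 0.42, edgeR adjusted p = 0.936), and it passed the edgeR test in none of the 6 comparisons. Against Control it was called as higher in LNPIFN-Y by DESeq2 (adjusted p = 0.0340), and in ptLNPIFN-Y by edgeR on the 2 groups alone (adjusted p = 0.0309) and by limma with sample weights (adjusted p = 0.00452). The share of all genes that those fits called is not given here.

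Of the 3 genes for assembling and carrying dynein arms, Cfap300 (gene ID 234912; chr9:8021672-8042875, minus strand) passed the test. It stood in Control at 14.1, 24.1, 17.3, 12.1 and 8.84 CPM and in Model at 8.82, 10.2, 5.22, 9.23 and 19.7 CPM. The LNPIFN-Y libraries held 4.99, 7.74, 10.7, 6.87 and 7.08 CPM, and in ptLNPIFN-Y at 7.50, 3.64, 8.86, 2.59 and 5.56 CPM. Of the ptLNPIFN-Y libraries, only replicate 3 reached the lowest Control value. Cfap300 fell in ptLNPIFN-Y against Control by 1.44 on the log2 scale (SE 0.37, edgeR adjusted p = 0.0138), and its fold change in LNPIFN-Y was -1.03 (SE 0.37, edgeR adjusted p = 0.0687). Spag1, a dynein arm assembly factor, ran from 7.91 CPM in ptLNPIFN-Y 5 to 59.7 CPM in Model 5 with a rho of 0.314, and Model 1, with Foxj1 at 0.455 CPM, held 47.0 CPM of it. Cfap298 lay between 17.3 and 52.4 CPM.

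The 9 broadly used members had rho values from -0.415 to 0.821. The highest were those of Cfap298 (0.821) and Cfap20 (0.767), which are also in role groups of motile cilia. Spag9, a scaffold protein of JNK signalling and vesicle transport, had a Control mean of 201.5 ± 11.0 CPM (SD, n = 5), and its lowest library, Model 2, held 50.6% of its highest, Model 3, at 345.5 CPM. Spag7 lay between 46.8 and 63.8 CPM in the 20 libraries. Per kilobase it had the highest Control mean of all members, 45.0 CPM, where the median member had 5.29 CPM and Dnah14 the lowest, 0.124 CPM. Spag4, near the threshold of the rule, was at 0 in LNPIFN-Y 5 and otherwise between 0.482 and 2.01 CPM.

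**Figure D3:**
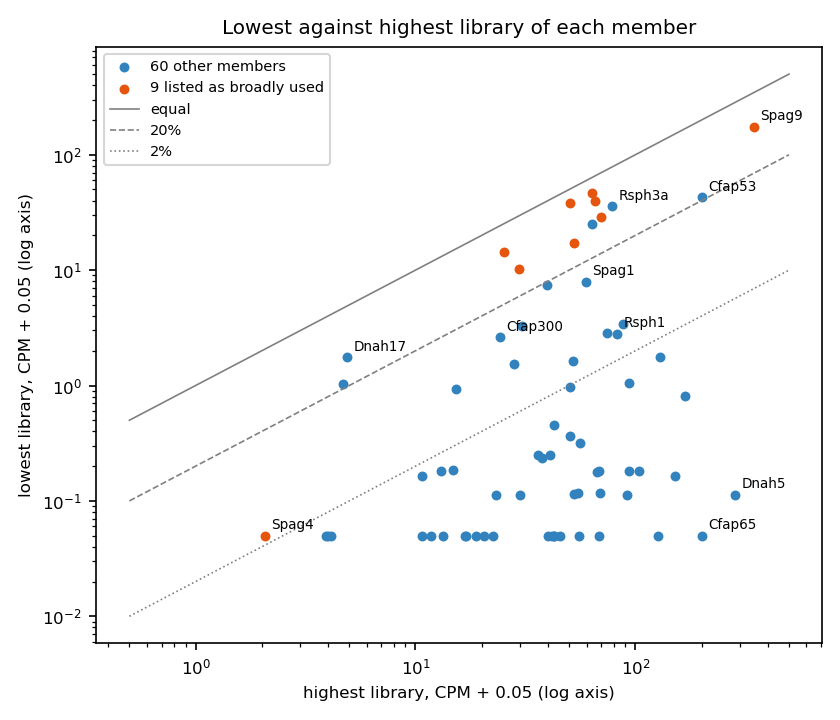
Lowest against highest library of each of the 69 members, as CPM + 0.05 on log axes, with lines at equal values and at 20% and 2% of the highest. Of the 60 members outside the broadly used list, 45 had a lowest library at 2% of the highest or less and 5 were over 20%; of the 9 broadly used members, 8 were over 20%.

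Members differed in how low they went. Control 2 was the highest library for 51 members and Model 5 for 11. The lowest library held 2% of the highest or less for 45 of the 60 members outside the broadly used list, and over 20% for 5 of them: Cfap53, Dnah17, Dnah8, Rsph3a and Rsph3b. There were 21 members with no count in at least 1 library. In the library with the lowest summed level of the 60, ptLNPIFN-Y 5, Cfap53, Rsph3a, Rsph3b and Spag1 made up 70.4% of that sum, and in Control 2 they made up 6.81%. These 4 were chosen after their values were seen. Dnah5 alone made up 8.69% of the sum in Control 2 and 0.0195% in ptLNPIFN-Y 4.

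Between Model and Control, which compares ovaries labelled ovarian cancer with those that have no treatment, no member passed the test in edgeR. The background was 0% of the 15723 tested genes as higher and 0% as lower. The median log2 fold change of the members was -0.714, and 63 of 69 were under 0, against 47.1% of all genes, whose median was 0.013. No member was at -1 or less, against 1.14% of all genes. At an unadjusted p under 0.05, 1 member was lower and 1 higher, against 0.681% and 4.23% of all genes, and DESeq2 and limma with sample weights each called 0 members. No member separated the groups without overlap, against 0.572% of genes higher and 0.223% lower. Without Model 5 the median was -1.776, and without Control 2 it was -0.280. The fold change of Dnah5 was -0.86 (SE 1.62, edgeR adjusted p = 0.937).

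Between LNPIFN-Y and Model, which bears on the effect of the LNPIFN-Y particle in tumour-bearing ovary, the members were lower in level on balance but none passed the test in edgeR. The background was 5.25% of genes higher and 0.566% lower. The median log2 fold change was -1.583, against -0.028 over all genes. Of the 69 members, 64 were under 0 and 50 were at -1 or less, against 54.5% and 8.57% of all genes. The lowest fold change was that of Dnah7c, -2.44 (SE 1.05, edgeR adjusted p = 0.219). Among the role groups, the median was -1.747 over 11 central apparatus genes, -1.729 over 10 inner arm chains, -1.427 over 8 radial spoke genes and -0.072 over the 9 broadly used genes. At an unadjusted p under 0.05, 4 members were lower and 0 higher, against 8.32% and 10.4% of all genes, and DESeq2 and limma with sample weights each called 0 members. No member separated the groups, against 4.33% of genes higher and 0.884% lower. Without LNPIFN-Y 3 the median was -3.817 and 4 members passed the test, with the share of all genes called in that fit not given here. Without Model 5 the median was -0.479.

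Between ptLNPIFN-Y and Model the members had a median of -1.967, with 65 of 69 members under 0 and 50 at -1 or less, against 56.2% and 8.94% of all genes, and no member past the test in edgeR. The background was 6.05% of genes higher and 0.948% lower, and the median of all genes was -0.050. Cfap43 had a fold change of -1.85 (SE 1.12, edgeR adjusted p = 0.329) and Dnah5 of -2.47 (SE 1.71, edgeR adjusted p = 0.390). Dnah7c had the smallest adjusted p, with -2.76 (SE 1.07, edgeR adjusted p = 0.135). At an unadjusted p under 0.05, 5 members were lower and 1 higher, against 9.66% and 12.7% of all genes. DESeq2 called 1, Dnah7c, and limma with sample weights called 1, Cfap300, with the share of all genes called in those fits not given here. No member separated the groups, against 4.83% of genes higher and 1.23% lower. Without ptLNPIFN-Y 3 the median was -3.500, and without Model 5 it was -0.842. This comparison shares its Model libraries with the preceding one.

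Between ptLNPIFN-Y and LNPIFN-Y, which differ in the pt prefix of the label, no member passed the test in edgeR, with a background of 0% of genes higher and 0% lower. The median log2 fold change was -0.274, with 56 of 69 members under 0 and 0 at -1 or less, against 51.4% and 1.39% of all genes. No member had an unadjusted p under 0.05, against 1.43% of genes higher and 1.63% lower, and DESeq2 and limma with sample weights each called 0 members. No member separated the groups, against 0.102% and 0.089%. The median depended on replicate 3 of either group. It was 1.664 without LNPIFN-Y 3, with the sign reversed, and -1.841 without ptLNPIFN-Y 3, with the same sign. The fold change of Dnah5 was -0.53 (SE 1.64, edgeR adjusted p = 0.9997).

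Against Control, the median of the members was -2.367 in LNPIFN-Y and -2.751 in ptLNPIFN-Y, with 52 of 69 members at -1 or less in each, against 11.5% and 12.1% of all genes. Fold changes under 0 were found for 63 and 65 members, against 52.4% of all genes in each. These 2 comparisons share the Control libraries. In LNPIFN-Y 2 members fell, Rsph3a and Rsph3b, with a background of 3.28% of genes lower and 10.8% higher. In ptLNPIFN-Y 5 members fell, Cfap300, Dnah7c, Rsph3a, Rsph3b and Tekt2, with a background of 5.39% lower and 12.2% higher. No member rose in either. No member separated the groups, against 6.5% of genes lower and 13% higher in LNPIFN-Y and 5.65% and 11.1% in ptLNPIFN-Y. At an unadjusted p under 0.05, 22 members were lower and 1 higher in LNPIFN-Y, against 14.4% and 19.1% of all genes, and 34 were lower and 1 higher in ptLNPIFN-Y, against 15.7% and 19.6%.

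For the fits that leave out libraries, the share of all genes called is not given here, so the counts of members have no background beside them. The number of members called against Control rested on single libraries. In LNPIFN-Y it was 52 without LNPIFN-Y 3, 6 without Control 5, 1 without Control 1, Control 3, LNPIFN-Y 1 or LNPIFN-Y 2, and 0 without Control 2 or LNPIFN-Y 5; the median without LNPIFN-Y 3 was -4.493. Without LNPIFN-Y 4 Rsph3a was no longer called (edgeR adjusted p = 0.0723) and Cfap53 was called as higher (edgeR adjusted p = 0.0401). In ptLNPIFN-Y it was 50 without ptLNPIFN-Y 3, 8 without Control 5, 3 without Control 4, ptLNPIFN-Y 1 or ptLNPIFN-Y 5, and 1 without Control 1, Control 2, Control 3, ptLNPIFN-Y 2 or ptLNPIFN-Y 4; the median without ptLNPIFN-Y 3 was -4.367. Cfap300 kept its call in ptLNPIFN-Y without any single library (edgeR adjusted p from 0.00872 to 0.0437). The calls of Rsph3a and Rsph3b in LNPIFN-Y had adjusted p values up to 0.132 and 0.0773. All 4 calls in ptLNPIFN-Y other than Cfap300 were also lost without Control 2, among other libraries, with adjusted p values up to 0.0938 for Rsph3a, 0.0898 for Rsph3b, 0.0962 for Dnah7c and 0.120 for Tekt2. Without the 2 libraries that had no Zp3 count, 0 members were called in LNPIFN-Y and 2 in ptLNPIFN-Y, Cfap300 and Rsph3b (edgeR adjusted p = 0.0386 and 0.0444), and the medians were -2.029 and -2.431. The medians against Model were then -1.230 and -1.660, with no member called.

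**Figure D4:**
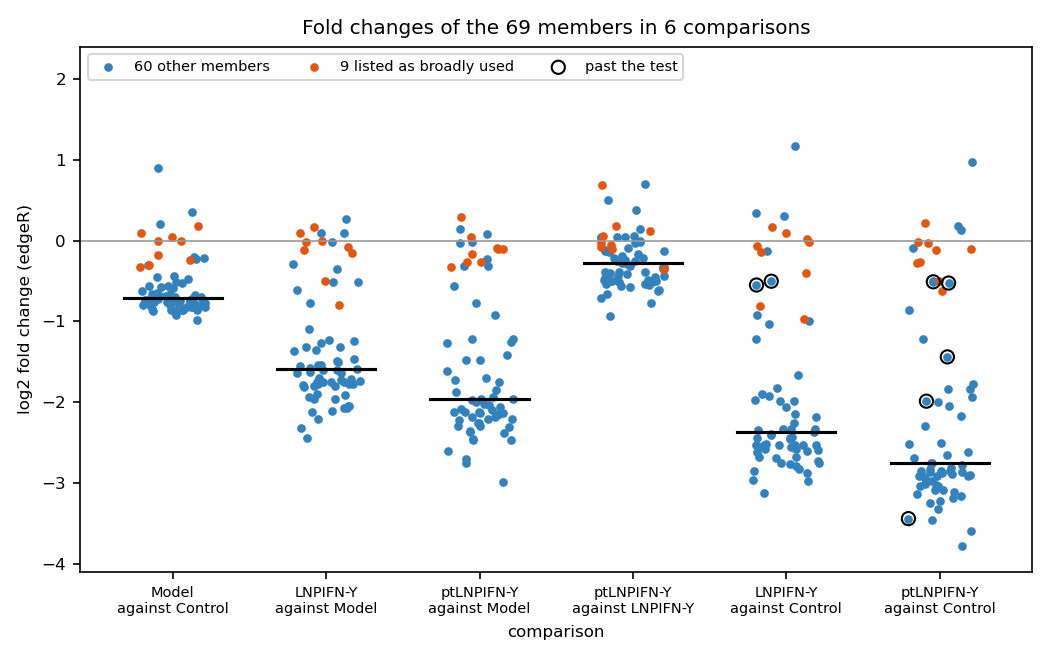
Log2 fold changes (edgeR) of the 69 members in 6 comparisons, with a black line at the median, members of the broadly used list in orange and circles around members past the test. The medians run from -0.274 for ptLNPIFN-Y against LNPIFN-Y to -2.751 for ptLNPIFN-Y against Control, and the circles are 2 for LNPIFN-Y and 5 for ptLNPIFN-Y, both against Control.

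Other genes of motile cilia, which the name rule leaves out, had medians near those of the members. Of 48 tested genes on that list, which holds docking, assembly and transport factors, the median log2 fold change was -1.661 in LNPIFN-Y against Model and -1.993 in ptLNPIFN-Y against Model, and none passed the edgeR test in either, with 0 and 2 of 48 lower at an unadjusted p under 0.05, against 8.32% and 9.66% of all genes. Against Control, with medians of -2.402 and -2.709, 2 of 48 fell in LNPIFN-Y and 3 of 48 in ptLNPIFN-Y, where 3.28% and 5.39% of all genes were lower. At an unadjusted p under 0.05, 18 and 25 of the 48 were lower, against 14.4% and 15.7% of all genes. Dnaaf2 and Dnaaf4, both factors for preassembly of dynein arms, fell in both, Dnaaf2 by 0.43 in LNPIFN-Y (SE 0.12, edgeR adjusted p = 0.0264) and Dnaaf4 by 1.57 (SE 0.51, edgeR adjusted p = 0.0466). Stk33, a kinase, fell by 3.35 in ptLNPIFN-Y (SE 1.01, edgeR adjusted p = 0.0302). These 3 were named after their values were seen, and each call was lost without Control 2 and without at least 2 other single libraries. Without the libraries that had no Zp3 count, Dnaaf2 alone was still called, and in ptLNPIFN-Y alone (edgeR adjusted p = 0.0379). Dnaic1 and Dnaic2, the outer arm intermediate chains, ran from 0 to 31.7 CPM and from 1.78 to 88.3 CPM, with the highest value in Control 2 for both.

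Among the factors that switch on ciliary genes, Rfx3 passed the test and Foxj1 did not. Rfx3 stood in Control at 29.97, 45.7, 36.1, 29.7 and 22.04 CPM and in Model at 18.8, 20.1, 18.3, 24.8 and 42.9 CPM. Across the LNPIFN-Y libraries its level was 10.4, 15.8, 27.7, 15.3 and 18.7 CPM, and in ptLNPIFN-Y at 21.3, 14.6, 19.7, 11.8 and 10.3 CPM. All ptLNPIFN-Y libraries lay under the lowest Control library, and in LNPIFN-Y only replicate 3 lay above it. Rfx3 fell against Control by 0.89 in LNPIFN-Y (SE 0.29, edgeR adjusted p = 0.0488) and by 1.07 in ptLNPIFN-Y (SE 0.29, edgeR adjusted p = 0.0185). The call in LNPIFN-Y was lost in 8 of 10 fits that left out 1 library and that in ptLNPIFN-Y in 3 of 10, without Control 2, ptLNPIFN-Y 4 or ptLNPIFN-Y 5, and both were lost without the libraries that had no Zp3 count (edgeR adjusted p = 0.0982 and 0.0575). Rfx2 had fold changes of -0.70 and -0.93 there (edgeR adjusted p = 0.272 and 0.151), and Foxj1 of -2.65 and -2.75 (edgeR adjusted p = 0.248 and 0.226), with SE of 1.62 and 1.63. Mcidas, which starts the multiciliated programme, had between 0 and 22 counts per library. Of the 10 tested genes on this list, 9 had fold changes under 0 in each of these comparisons.

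Secretory and other epithelial genes of the oviduct followed the cilia genes in most libraries. Ovgp1, which encodes oviductin, stood in Control at 6343, 14560, 4460, 4019 and 1085 CPM and in Model at 2.67, 6293, 1196, 3196 and 8494 CPM. In LNPIFN-Y it stood at 2.01, 43.4, 3910, 194.5 and 3.97 CPM, and in ptLNPIFN-Y at 3.01, 64.3, 3733, 3.23 and 1163 CPM. Ovgp1 was at 1085 CPM or more in all 10 libraries with Foxj1 at 10 CPM or more. Of the libraries under that level, Model 3 held 1196 CPM of it with Foxj1 at 8.86 CPM. It was also at 1163 CPM in ptLNPIFN-Y 5 and at 194.5 CPM in LNPIFN-Y 4, whose Foxj1 was 0.402 and 0.426 CPM and whose Dnah5 was 0.201 and 0.304 CPM. In ptLNPIFN-Y 5, Pax8, a factor of secretory cells, was at 12.2 CPM and Epcam, an epithelial adhesion protein, at 20.9 CPM, against lows of 0.676 and 3.18 CPM over all libraries. Epcam was highest in Model 2, at 297 CPM, where Foxj1 stood at 52.1 CPM, below all Control libraries but Control 5.

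**Figure D5:**
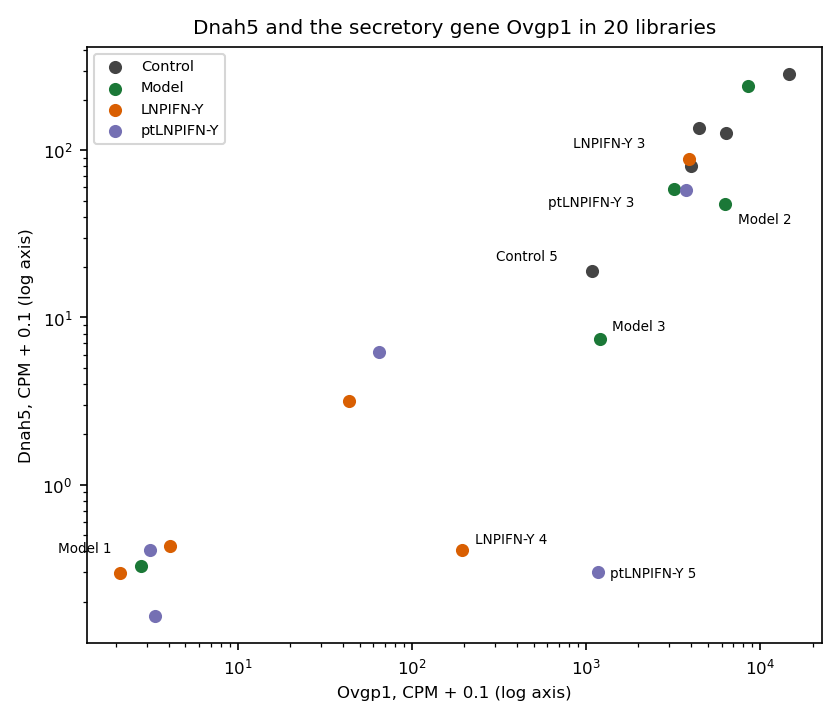
Dnah5 against Ovgp1 in 20 libraries, both as CPM + 0.1 on log axes and coloured by group. Libraries rich in both, with LNPIFN-Y 3 and ptLNPIFN-Y 3 among Control and Model, lie at the upper right, while ptLNPIFN-Y 5 and LNPIFN-Y 4 lie low, with Dnah5 at 0.201 and 0.304 CPM, but have Ovgp1 at 1163 and 194.5 CPM; Model 3 has a like Ovgp1 level to ptLNPIFN-Y 5, 1196 CPM, with Dnah5 at 7.28 CPM.

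Over 17 tested oviduct epithelial genes that are not cilia genes, the median log2 fold change was 0.088 in Model against Control, -2.150 in LNPIFN-Y against Model and -1.390 in ptLNPIFN-Y against Model. Against Control it was -2.080 and -1.169. Sox17, a factor of oviduct epithelium, fell in LNPIFN-Y against Control by 2.16 (SE 0.69, edgeR adjusted p = 0.0459). Chil1, a chitinase-like protein also made by activated macrophages, rose in ptLNPIFN-Y against Model by 2.34 (SE 0.68, edgeR adjusted p = 0.0433), and by 3.07 and 3.11 in LNPIFN-Y and ptLNPIFN-Y against Control (edgeR adjusted p = 0.00707 and 0.00585). Both were named after their values were seen. Sox17 lost its call in 8 of 10 fits that left out 1 library and without the libraries that had no Zp3 count (edgeR adjusted p = 0.117). Chil1 kept its calls against Control in all of these fits, and lost that against Model in 7 of 10 and without the libraries that had no Zp3 count (edgeR adjusted p = 0.0519). The summed level of the list ran from 1332 to 16130 CPM in Control and from 117 to 9662 CPM in Model. The LNPIFN-Y libraries spanned 67.8 to 4426 CPM and the ptLNPIFN-Y libraries 96.9 to 4695 CPM.

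With the mean of these 17 genes per library as a covariate, the median of the 69 members was -0.581 in Model against Control, -0.059 in LNPIFN-Y against Model and -0.514 in ptLNPIFN-Y against Model. It was -0.450 in ptLNPIFN-Y against LNPIFN-Y, -0.594 in LNPIFN-Y against Control and -1.192 in ptLNPIFN-Y against Control. No member passed the edgeR test in any of the 6, and Cfap300 in ptLNPIFN-Y against Control had an adjusted p of 0.0667. Markers of other tissue also varied between libraries. The summed level of 15 granulosa cell genes ran from 4487 to 9275 CPM in Control and from 453 to 8107 CPM in LNPIFN-Y, and 10 adipocyte genes ran from 949.7 to 20690 CPM in ptLNPIFN-Y, against 1480 to 9224 in Control. All 10 smooth muscle genes were lower in ptLNPIFN-Y against Model at an unadjusted p under 0.05, against 9.66% of all genes, with a median log2 fold change of -1.292. Their summed level ran from 1619 to 6248 CPM in Model and from 223 to 2052 CPM in ptLNPIFN-Y, and none of them passed the edgeR test there. Of 8 genes of mesothelium and ovarian surface, 7 were higher in LNPIFN-Y against Control at an unadjusted p under 0.05, against 19.1% of all genes, with a median of 1.398. Of these, Upk1b and Muc16, named after their values were seen, passed the test (edgeR adjusted p = 0.0103 and 0.0107), where 10.8% of all genes were higher. In ptLNPIFN-Y against Control, 3 of the 8 were higher at an unadjusted p under 0.05, against 19.6% of all genes. There Muc16 alone passed the test (edgeR adjusted p = 0.0127), where 12.2% of all genes were higher. Whether RNA of these 8 genes came from host or tumour cells was not tested. The defining oocyte gene Zp3 was at 0 in the 2 libraries named above. The covariate is no measure of oviduct share alone, since its genes include Chil1, which rose, and Epcam. Its mean log2 CPM was 6.495 in Model 2 and 5.991 in Control 2, where that of the 69 members was 3.371 and 5.154. The share of oviduct, ovary, muscle, mesothelium and fat in each sample and its part in the fold changes was not tested.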

How the data were processed

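The 20 libraries were made from poly(A)-selected RNA of mouse ovary and read on a DNBSEQ platform, per the labels' protocols. Per the submitters' processing notes, HISAT2, StringTie, RSEM and DESeq2 were used with GRCm38.p6, and versions were not given in the sources used here, nor was strandedness. The authors deposited expected counts per gene with gene lengths, in which 9.85% of values carry decimals. After rounding, edgeR 4.0.16 (R 4.3.3) was run here: filterByExpr with a minimum count of 10 (15723 genes tested), scaling by the trimmed mean of M-values, and a quasi-likelihood fit of all 20 libraries in 4 groups with 16 residual degrees of freedom. The Benjamini-Hochberg adjustment ran over the whole set of tested genes, with a threshold of 0.05. The script was tested on simulated data. CPM used the scaled library sizes, and log2 CPM a prior count of 2. Total counts of 16496793 to 17218043 per library give a floor of 3 counts for a count of 0, covering counting error only. The table had 1 row emptied for this work and 0 columns of other samples.

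The members, role groups and lists were chosen with earlier results of these data known. Members were named by rule: the 2 most abundant per role group, those past the test, the 3 highest and 3 lowest by rho, and the 2 nearest the threshold on each side; members outside this rule are given as examples of their role group and were chosen after their values were seen. Alternatives were DESeq2 1.42.0, limma 3.58.1 with sample weights, RLE size factors, no filter, the 2 groups alone, the replicate number as a block, the oviduct covariate, no libraries without Zp3, and each library left out in turn. Exon overlaps came from GENCODE vM21, which held 67 of the 69 members, and 11 members shared exon bases with another protein-coding gene.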

Additional observations from a re-analysis of the deposited data

Results flagged for a closer look

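A library apart from the other 4 of its group was looked for in 116 groups of 5 with Dixon's ratio at a critical value of 0.71, and 12 stood out. Chance gives about 1 in 20 for independent groups with normal spread. These groups were not independent, since the sums share members and most members moved together, so the 12 cannot be set against that rate.

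Replicate 3 of both particle groups stood out as rich in cilia RNA. LNPIFN-Y 3 had a Foxj1 level of 85.4 CPM, where the other 4 libraries lay between 0.426 and 3.84 CPM. Its summed level was 1811 CPM over the 69 members and 1316 CPM over the 60 outside the broadly used list, where the others reached 882 and 361 CPM. Its log2 CPM was 5.45 for Cfap43 (others 1.13 to 1.66) and 5.66 for Rsph3a (others 5.25 to 5.30). ptLNPIFN-Y 3 had a Foxj1 level of 79.9 CPM (others 0.0615 to 6.46 CPM) and summed levels of 1562 and 1043 CPM (others up to 880 and 383 CPM).

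Model 5 stood out in Model with summed levels of 3525 and 2988 CPM, where the others reached 1448 and 989 CPM.

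Model 3 had the highest Spag9, a log2 CPM of 8.43 against 7.45 to 7.73 in the other Model libraries, and also the highest Cfap53 of all libraries, 200.1 CPM. LNPIFN-Y 5, a library with no Zp3 count, had the lowest Spag4, a log2 CPM of -3.08 on the scale with a prior count, against -0.51 to -0.04.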

How the results depend on the processing

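Over the settings tried, 182 of the recomputed counts, medians and summed ratios stayed within a wide limit of the values given and 46 moved. The limit was the pooled SD between libraries of a group, 1.455 for medians and 0.691 for summed ratios, and a fixed fold for counts. A shift of the median in LNPIFN-Y against Model from -1.583 to -0.479 was thus within it. No direction of a named member past the test was reversed. Against Control, the number of members called in LNPIFN-Y (2) was 1 with no low-count filter, 11 with DESeq2 (10 lower and 1 higher) and 53 with sample weights, all lower, and 0 with the oviduct covariate or without the libraries with no Zp3 count. In ptLNPIFN-Y (5) it was 9 with the 2 groups alone (8 lower and 1 higher), 22 with DESeq2, all lower, and 20 with sample weights (19 lower and 1 higher), 0 with the covariate and 2 without the pair of libraries that lacked Zp3. In ptLNPIFN-Y against Model it was 1 with DESeq2 and 1 with sample weights. The share of all genes called under each alternative setting, fits that left out a library included, is not given here. These counts can therefore not be read as particular to the members. With the covariate the medians were -0.059 in LNPIFN-Y against Model, -0.594 in LNPIFN-Y against Control and -1.192 in ptLNPIFN-Y against Control. The log2 ratio of the mean summed level to Control was -0.433 for Model, -1.135 for LNPIFN-Y and -1.239 for ptLNPIFN-Y. As a difference in mean log2 CPM over the members it was -1.151, -2.696 and -2.806. The log2 ratio of the summed level without the broadly used members was -1.933 for ptLNPIFN-Y. Leaving out each library gave counts of 0 to 4 in LNPIFN-Y against Model, 0 to 52 in LNPIFN-Y against Control and 1 to 50 in ptLNPIFN-Y against Control. The medians ranged from -1.776 to -0.280 in Model against Control, -3.817 to -0.479 in LNPIFN-Y against Model, -3.500 to -0.842 in ptLNPIFN-Y against Model, -1.841 to 1.664 in ptLNPIFN-Y against LNPIFN-Y, -4.493 to -1.998 in LNPIFN-Y against Control and -4.367 to -2.352 in ptLNPIFN-Y against Control.

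With the replicate number as a block, 32 members were called in ptLNPIFN-Y against Control and 3 in LNPIFN-Y against Control, and the median in LNPIFN-Y against Model was -3.072. The share of all genes called in that fit is not given here. The calls of Rsph3a and Rsph3b in LNPIFN-Y were lost there (edgeR adjusted p = 0.0576 and 0.0531) and Dnah7c was called (0.0484), and in ptLNPIFN-Y those of Rsph3b and Tekt2 were lost (0.0566 and 0.0562). The numbers do not pair the libraries: same-numbered libraries had correlations of their deviations from -0.698 to 0.760, over 0.1 in 11 of 30 pairs, so they share only a number. The causes of these shifts were not tested. Members with few counts, such as Dnah14, are limited by depth.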

Other observations

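Replicate 3 was the cilia-richest library of both particle groups, and replicate 5 that of Model, while Control 5 was the poorest of Control. The ratio of Ovgp1 to Foxj1 lay between 30.01 and 64.8 in Control, and was above that range in ptLNPIFN-Y 5 (2894), LNPIFN-Y 4 (457), Model 3 (135) and Model 2 (121). It was below that range in Model 1 (5.88), in LNPIFN-Y 1, 2 and 5 (1.24, 11.3 and 2.31) and in ptLNPIFN-Y 2 and 4 (9.96 and 10.2). In ptLNPIFN-Y 5 the cilia members thus lay at their floor beside an Ovgp1 level of 1163 CPM, and this library had the highest level of the fat gene Adipoq, 1819 CPM, and no Zp3 count. Rfx2 was high in LNPIFN-Y 1, at 21.01 CPM, where Foxj1 stood at 1.62 CPM.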
